A study of Mus musculus with 15 samples.

Results

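The mitochondrial respiratory chain genes described here were found by name: a probe was taken if its gene symbol began with NDUF, UQCR, ATP5 or COX followed by a digit, was SDHA, SDHB, SDHC or SDHD, or was CYC1 or CYCS. The rule found 89 genes, measured by 131 probes, among 28904 distinct names on the array. The brightest probe stood for each gene. Of the 89 genes, 78 encode subunits of the chain or cytochrome c and the other 11 are assembly factors and neighbours that share the name pattern. Among these 11, Emc8 was found only through its older name Cox4nb and belongs to a complex of the endoplasmic reticulum.

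The respiratory chain sits in the inner mitochondrial membrane. Complexes I and II feed electrons from NADH and succinate to ubiquinone, complex III passes them to cytochrome c, and complex IV hands them to oxygen, while complexes I, III and IV pump the protons that drive complex V, the ATP synthase. Most subunits are encoded in the nucleus and a few by mitochondrial DNA. In the normal prostate, secretory epithelium exports citrate, which limits how much of it enters the tricarboxylic acid cycle that supplies the chain.

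RNA came from the anterior prostate of 15 mice, 1 Illumina BeadArray per mouse. Control mice (n = 3) were intact and heterozygous for a knock-in allele marked CE2, and the series' design text calls them phenotypically wild-type. Mutant mice carried the same CE2 allele and in addition a homozygous floxed gene, marked f/f, with 6 intact and 6 castrated animals. The CE2 allele, an inducible Cre recombinase in prostate epithelium, is thus shared by all 3 groups, and there was no castrated control. The series belongs to a study of the Akt and mTOR pathways in prostate tumours that grow after castration. Age, the time since castration and any induction of Cre are not in the labels.

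Values are log2 of the authors' processed intensities. A probe was called above background on an array where it exceeded the 95th percentile of 1468 olfactory and pheromone receptor probes, and a gene was tested if its probe did so on at least 3 arrays. By this limit 42.4% to 48.2% of an array's probes were above background. Genes with an adjusted p under 0.05 (limma, Benjamini-Hochberg over all 16717 tested genes) are called higher or lower. Of the 89 members, 84 were tested. The other 5, namely Cox4i2, Cox7b2, Cox8c, Ndufs1 and Uqcrq, were not well above background on any array. Sdha, the flavoprotein of complex II, passed the limit on only 3 arrays, so its values say little. Folds of dim probes are understated because background had not been subtracted to 0.

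The promoters of 4 members are printed because their genes are among the called members described below and hold motifs long linked to nuclear genes of the chain. Cycs and Ndufa11 were higher in intact mutant than in control prostate, and Sdhb and Ndufb2 were lower. Each sequence is the 250 bases before the annotated start in RefSeq's GRCm38.p6, written 5′ to 3′ along the gene, with matches to the motifs in capitals.
Cycs (chr6:50566570-50566819, minus strand): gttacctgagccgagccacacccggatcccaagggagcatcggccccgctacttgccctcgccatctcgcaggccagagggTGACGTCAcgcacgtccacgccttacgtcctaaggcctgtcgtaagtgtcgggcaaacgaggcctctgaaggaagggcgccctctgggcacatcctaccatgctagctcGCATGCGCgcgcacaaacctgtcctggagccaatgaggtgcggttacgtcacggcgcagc
Ndufa11 (chr17:56717512-56717761, plus strand): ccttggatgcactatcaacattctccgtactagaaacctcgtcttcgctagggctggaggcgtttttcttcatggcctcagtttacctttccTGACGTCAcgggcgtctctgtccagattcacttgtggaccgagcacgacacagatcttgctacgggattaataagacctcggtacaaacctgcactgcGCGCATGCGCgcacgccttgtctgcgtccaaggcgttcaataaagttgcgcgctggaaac
Sdhb (chr4:140961021-140961270, plus strand): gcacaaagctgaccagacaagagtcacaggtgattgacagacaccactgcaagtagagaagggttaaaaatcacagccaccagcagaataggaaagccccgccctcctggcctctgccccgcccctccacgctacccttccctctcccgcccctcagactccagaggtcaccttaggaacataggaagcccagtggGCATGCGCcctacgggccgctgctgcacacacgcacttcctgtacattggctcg
Ndufb2 (chr6:39592315-39592564, plus strand): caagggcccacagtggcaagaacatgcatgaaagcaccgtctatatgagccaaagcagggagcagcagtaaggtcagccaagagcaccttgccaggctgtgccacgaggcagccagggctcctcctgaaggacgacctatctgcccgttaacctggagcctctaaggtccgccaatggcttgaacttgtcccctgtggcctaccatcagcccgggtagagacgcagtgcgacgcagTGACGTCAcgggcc
The capitals mark GCATGCGC, the core bound by nuclear respiratory factor 1 (NRF1), and TGACGTCA, the cAMP response element bound by CREB, searched on both strands. Cycs held the NRF1 letters from 60 to 53 bases before the start and the CREB letters from 169 to 162 bases before it. Ndufa11 held both at similar places, with the NRF1 letters on each strand overlapping. Sdhb held only the NRF1 letters and Ndufb2 only the CREB letters.

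Promoters were listed for 71 of the 89 members, and a further motif, CCGGAAG of the ETS factors that include GABPA, was searched as well. GCATGCGC was present in 9 of the 71 members (12.7%) and in 2.56% of 27025 genes with a promoter. CCGGAAG was present in 14 members (19.7%) and 7.83% of all genes, and TGACGTCA in 5 members (7.04%) and 1.77% of all genes. The 9 members with GCATGCGC were Atp5g2, Atp5k, Atp5l, Cox6a1, Cycs, Ndufa11, Ndufa6, Ndufa8 and Sdhb, of which 2 were higher and 3 lower in intact mutant prostate. Of the 14 members with CCGGAAG, 1 was higher and 6 were lower. The 71 members with a promoter included 8 higher and 24 lower genes. By the brightest probe, members of both directions held each motif. For CCGGAAG the only higher member was Atp5j, whose second probe differed by -0.61. Cycs, higher with GCATGCGC and TGACGTCA, had other probes that differed by -0.15 and 0.03. A match is a run of letters, and binding was not measured.

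In intact mutant against intact control prostate, members of the chain were shifted slightly down. The median log2 fold change over the 84 tested members was -0.18, against -0.04 over all tested genes, and 58 of the 84 lay below 0. Lower calls went to 29 members (34.5%), where 25.4% of all tested genes were lower. Higher calls went to 8 members (9.52%), where 18.2% of all tested genes were higher. No member changed more than 2-fold. Without control array 1, 3 members were higher (3.57%, with 14.5% of all tested genes) and 22 lower (26.2%, with 21.3%), and none of the 8 higher calls was made in all 29 alternative fits. Without the 4 intact arrays richest in seminal vesicle transcripts, 0 members were higher and 10 lower (11.9%, with 13.5% of all tested genes lower).

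The share of lower calls was smaller once only subunits were counted. Among the 73 tested subunits, 21 were lower (28.8%), close to the background share, and 8 were higher. Among the 9 tested assembly factors, 7 were lower. Arrays of intact mutant and control mice did not overlap for 31 members that lay lower (36.9%, background 23.5%) and 6 that lay higher (7.14%, background 17.8%). Bulk RNA cannot tell apart fewer cells of a type and less RNA per cell.

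**Figure D1:**
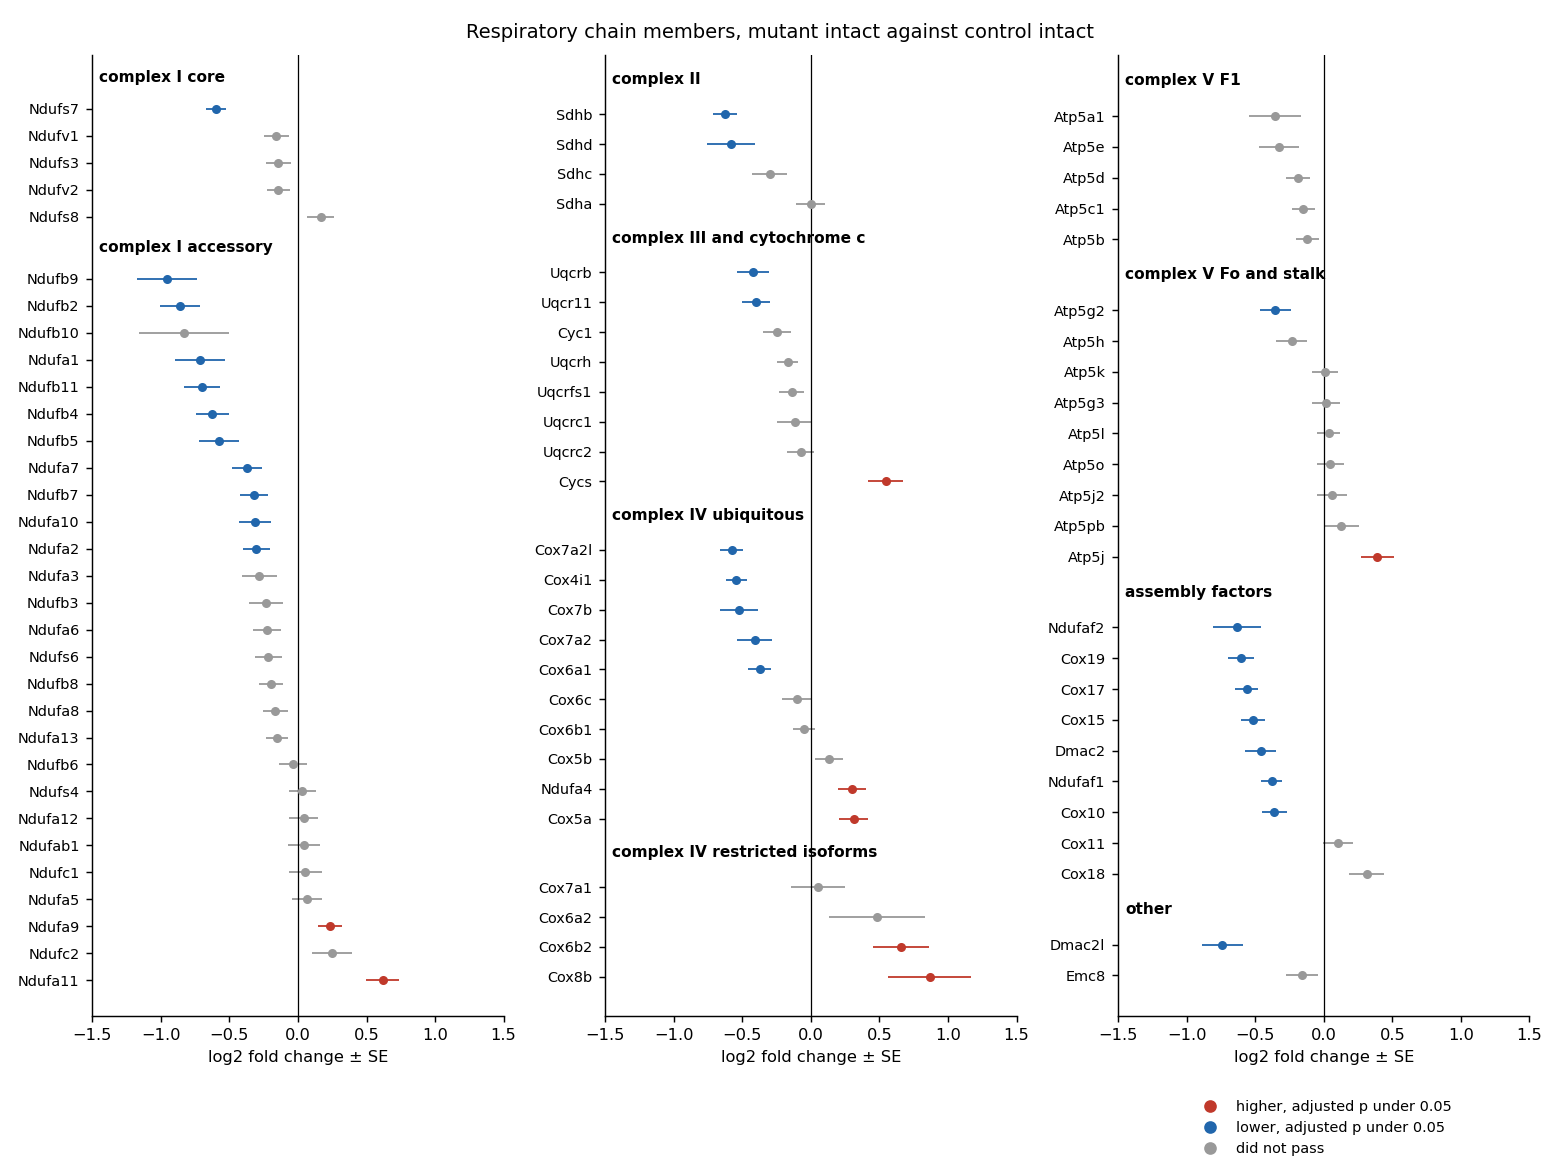
Log2 fold change of 83 tested members between mutant intact (n = 6) and control intact (n = 3) prostate, with standard errors from limma, grouped by part of the chain. Blue points (29) were lower and red points (8) higher at an adjusted p under 0.05. The lower points included 10 of 27 complex I accessory subunits and 2 of 4 complex II subunits. They also included 5 of 10 ubiquitous complex IV subunits and 7 of 9 assembly factors. Of all tested genes, 25.4% were lower and 18.2% higher.

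Complex I takes electrons from NADH, and its core subunits carry the flavin and iron-sulfur clusters. Of its 6 tested core subunits, only Ndufs7 was called. Ndufs7, which holds the last iron-sulfur cluster before ubiquinone, read 12.98, 13.05 and 12.99 on the 3 control arrays and from 12.23 to 12.52 (median 12.45) on the intact mutant arrays. Every intact mutant array lay below every control array. It fell by 0.60 ± 0.08 (SE) on the log2 scale, or 33.9%, with an adjusted p of 1.45e-05, the smallest among the members. The differences of Ndufv1 (-0.16), Ndufs3 (-0.14), Ndufv2 (-0.14) and Ndufs8 (0.17) did not pass.

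The accessory subunits of complex I surround the core and stabilise it. Of 27 tested, 10 were lower (37.0%, with 25.4% of all tested genes) and 2 higher (7.41%, with 18.2%). Their median log2 fold change was -0.22. Ndufb9, a subunit of the membrane arm, read 10.50, 10.32 and 10.35 in controls and from 9.16 to 9.71 (median 9.42) in intact mutants. Its groups did not overlap, and its fall of 0.96 ± 0.22 was the largest of any member (48.4% lower, adjusted p = 0.00237).

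Ndufb2, also of the membrane arm, read 9.68, 9.90 and 9.76 in controls and from 8.56 to 9.27 (median 8.95) in intact mutants. All 6 mutant arrays lay below the controls, and the gene fell by 0.86 ± 0.15 (adjusted p = 0.000205). Ndufa1, a small membrane subunit needed to assemble the complex, read 14.58, 14.61 and 14.77 in controls and from 13.33 to 14.45 (median 13.93) in intact mutants, with no overlap (fall of 0.71 ± 0.19, adjusted p = 0.00564). Ndufb11 and Ndufb4, 2 further membrane-arm subunits, fell by 0.70 ± 0.13 and 0.62 ± 0.12. A dimmer probe of Ndufb11 fell by only 0.12. The remaining lower accessory subunits, Ndufb5, Ndufa7, Ndufb7, Ndufa10 and Ndufa2, fell by 0.58 to 0.30, and the call of Ndufa10 was lost in 12 of 29 alternative fits.

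Ndufa11 moved the other way. This membrane-arm subunit read 11.76, 11.89 and 11.72 in controls, from 12.09 to 12.60 (median 12.44) in intact mutants and from 12.12 to 12.62 (median 12.46) in castrated mutants. All 12 mutant arrays lay above all control arrays. It rose 1.53-fold in intact mutants (0.62 ± 0.12, adjusted p = 0.000714). Ndufa9, which lies near the ubiquinone site, rose by 0.23 ± 0.09 (adjusted p = 0.048), a call lost in 15 of 29 alternative fits. Ndufb10 had a log2 difference of -0.83 ± 0.33 but did not pass (adjusted p = 0.054), and its groups overlapped.

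Complex II oxidises succinate and is also an enzyme of the tricarboxylic acid cycle. Sdhb, its iron-sulfur subunit, read 11.67, 11.58 and 11.73 in controls and from 10.87 to 11.29 (median 11.02) in intact mutants. Its groups were well separated, and it fell by 0.62 ± 0.09 (35.1%, adjusted p = 4.1e-05). A second probe of Sdhb fell by 0.57. Sdhd, a membrane anchor, read 9.53, 9.27 and 9.56 in controls and from 8.62 to 9.08 (median 8.89) in intact mutants, again without overlap (fall of 0.58 ± 0.17, adjusted p = 0.013). Sdhc, the other anchor, had a difference of -0.30 ± 0.13 and did not pass (adjusted p = 0.0695).

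Complex III moves electrons from ubiquinone to cytochrome c. Its small subunits Uqcrb and Uqcr11 were lower. The core proteins Uqcrc1 (-0.12) and Uqcrc2 (-0.08), the Rieske protein Uqcrfs1 (-0.14), cytochrome c1 (Cyc1, -0.25) and Uqcrh (-0.17) did not pass. Counted with cytochrome c, 2 of 8 tested genes were lower (25.0%, near the 25.4% of all tested genes). Higher calls went to 1 of the 8 (12.5%, with 18.2% of all). Uqcr11 read 14.14, 14.12 and 14.13 in controls and from 13.49 to 14.01 (median 13.69) in intact mutants. No mutant array reached the narrow control range, and the fall was 0.40 ± 0.10 (adjusted p = 0.00546). Uqcrb fell by 0.42 ± 0.12 (adjusted p = 0.00834).

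Cycs encodes somatic cytochrome c, which shuttles electrons to complex IV and, when released to the cytosol, helps start apoptosis. Its brightest probe read 11.16, 11.08 and 11.29 in controls and from 11.49 to 11.90 (median 11.73) in intact mutants. All 6 mutant arrays lay above the controls, a rise of 0.54 ± 0.13 (1.46-fold, adjusted p = 0.00266). The other 2 probes of Cycs did not show it, with differences of -0.15 and 0.03.

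Complex IV passes electrons to oxygen. Of its 10 tested ubiquitous subunits, 5 were lower (50%, with 25.4% of all tested genes). The 2 higher ones (20%) were close to the 18.2% of all tested genes. Cox4i1, the largest nuclear subunit, read 14.60, 14.69 and 14.67 in controls, from 14.03 to 14.24 (median 14.07) in intact mutants and from 13.89 to 14.17 (median 13.99) in castrated mutants. The gap between control and mutant arrays was wider than the spread within any group, and the fall in intact mutants was 0.54 ± 0.08 (31.4%, adjusted p = 3.31e-05). Cox7a2l, which joins complexes III and IV into supercomplexes, read 13.28, 13.12 and 13.33 in controls and from 12.47 to 12.80 (median 12.67) in intact mutants. Its groups did not overlap (fall of 0.58 ± 0.09, adjusted p = 6.07e-05), and a second probe fell by 0.82. Cox7b, Cox7a2 and Cox6a1, small subunits of the complex, fell by 0.53, 0.41 and 0.37.

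The 2 higher ubiquitous subunits of complex IV had small changes and overlapping groups, and their calls were lost in 7 (Cox5a) and 8 (Ndufa4) of 29 alternative fits. Cox5a, a subunit on the matrix side, read 13.02, 13.10 and 13.28 in controls and from 13.22 to 13.70 (median 13.40) in intact mutants (rise of 0.31 ± 0.11, adjusted p = 0.0311). Ndufa4, once counted in complex I and now in complex IV, read 13.96, 13.78 and 14.06 in controls and from 14.02 to 14.37 (median 14.29) in intact mutants (rise of 0.30 ± 0.10, adjusted p = 0.03). Cox6b1, Cox6c and Cox5b ranged from -0.10 to 0.13 and did not pass.

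Isoforms of complex IV that are restricted to heart and skeletal muscle or testis were measured at low intensity. Cox8b, an isoform of mouse heart, skeletal muscle and brown fat, read 7.37, 7.57 and 7.18 in controls, where 2 of 3 arrays were above background, from 7.36 to 8.92 (median 8.28) in intact mutants and from 7.88 to 8.98 (median 8.38) in castrated mutants. Intact mutant array 1 lay within the control range and the other mutant arrays lay above it. Cox8b rose by 0.87 ± 0.30 in intact mutants (adjusted p = 0.0313), a call lost in 6 of 29 alternative fits. Its control mean of 7.37 lay at the background limit, so no fold is given. Cox6b2, the testis isoform, read 7.11, 7.37 and 6.98 in controls, on no array above background, and from 7.40 to 8.25 (median 7.76) in intact mutants, on all arrays above it. Its mutant level was at least 1.36-fold higher than in control (adjusted p = 0.0169), taking background as the control level where the probe lay under it. A second probe of Cox6b2 differed by -0.02 and was above background on only 2 arrays.

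Cox6a2, the heart and skeletal muscle isoform, read 9.26 on intact mutant array 1 and from 7.17 to 7.57 on the other 5, with controls at 7.15, 7.30 and 7.03. The gene did not pass (adjusted p = 0.283). Cox7a1, another heart and muscle isoform, differed by only 0.06. Among the ubiquitous counterparts of these isoforms, Cox6a1 and Cox7a2 were lower and Cox6b1 had a difference of -0.05, which did not pass.

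Muscle markers moved in more than 1 direction beside these isoforms. Of 8 tested skeletal and cardiac muscle markers, 2 were higher (Tnni2 by 2.67 and Mb by 1.02) and 3 lower (among them Acta1 by a difference of -4.56). Their summed intensity ran from 7582 to 7816 in controls, 2031 to 3599 in intact mutants and 1808 to 2464 in castrated mutants. Actc1 and the myosins Myh1, Myh2, Myh4, Myh6 and Myh7 were not well above background. Of 5 tested adipocyte markers none passed, and their sums ran from 687 to 1304, 727 to 3225 and 687 to 4758 in the same order. Of the germ cell markers, Prm1, Prm2, Cyct and Pgk2 were not well above background, and the sums of the other 2 ran from 279 to 329, 277 to 351 and 295 to 367. The part of such cells in the levels of the isoforms was not tested.

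**Figure D2:**
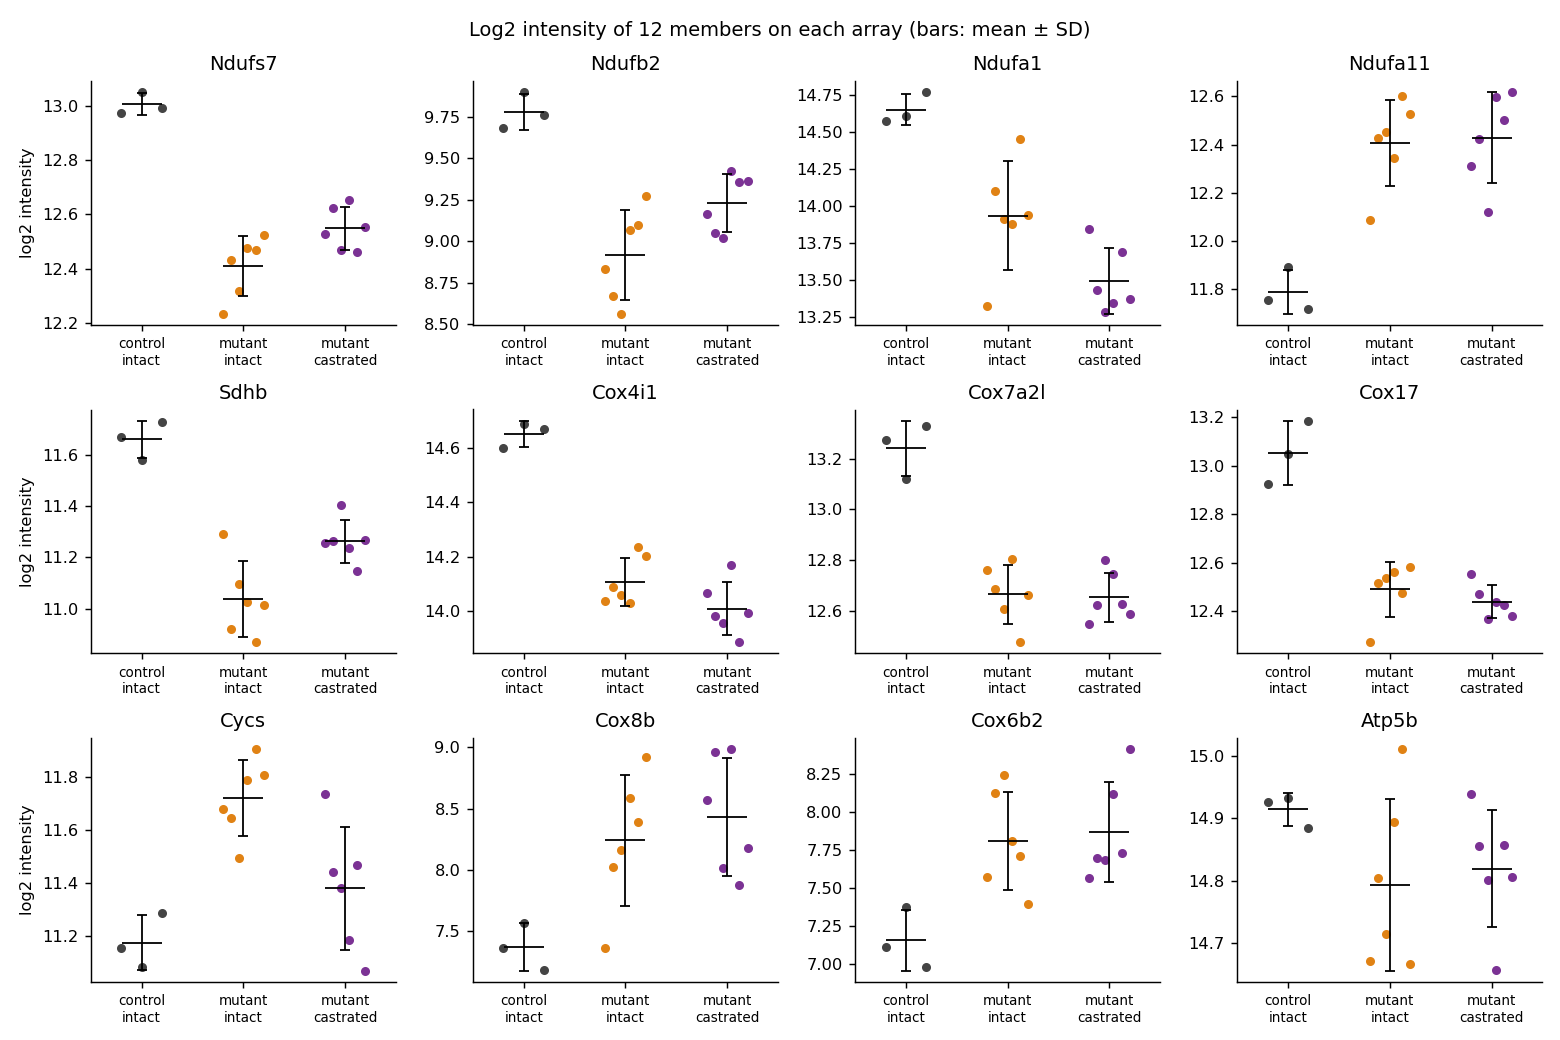
Log2 intensity of 12 members on each array, 1 point per mouse, with group mean and SD, for control intact (n = 3), mutant intact (n = 6) and mutant castrated (n = 6) prostate. For Ndufs7, Cox4i1 and Cox17 every mutant array lies below every control array, for Ndufa11 every mutant array lies above, and for Atp5b the groups overlap.

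Complex V, the ATP synthase, had few calls. None of its 5 tested F1 subunits passed, where 25.4% of all tested genes were lower and 18.2% higher. All 5 differences lay below 0, from -0.36 (Atp5a1) to -0.12 (Atp5b). Atp5b, the catalytic beta subunit, read 14.93, 14.93 and 14.88 in controls and from 14.67 to 15.01 (median 14.76) in intact mutants, with overlapping groups (adjusted p = 0.272). Among 9 tested subunits of the Fo part and the stalks, the median was 0.04, with 1 lower and 1 higher (11.1% each). Both sets hold few genes, so these shares are imprecise.

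Atp5g2, a source of the c subunit that forms the rotating ring, read 11.92, 11.90 and 12.12 in controls and from 11.31 to 11.77 (median 11.72) in intact mutants. The groups did not overlap, and it fell by 0.35 ± 0.11 (adjusted p = 0.0185). Atp5j, coupling factor 6 of the stalk, rose by 0.39 ± 0.12 on its brightest probe (adjusted p = 0.0172), while its second probe fell by 0.61. The sign for Atp5j thus depended on the probe. Dmac2l, known earlier as factor B of the ATP synthase, fell by 0.74 ± 0.15 (adjusted p = 0.000826).

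Of the 9 assembly factors tested, 7 were lower (77.8%, with 25.4% of all tested genes), and these serve complexes I and IV. Cox17, the copper chaperone that supplies complex IV, read 12.92, 13.05 and 13.19 in controls and from 12.27 to 12.58 (median 12.53) in intact mutants. Each mutant array lay under each control array, and the fall was 0.56 ± 0.08 (32.3%, adjusted p = 5.02e-05). Cox19, a further protein of copper delivery, read 11.19, 10.95 and 11.12 in controls and from 10.25 to 10.65 (median 10.47) in intact mutants, a fall of 0.60 ± 0.10 (adjusted p = 0.000113). Cox15 and Cox10, which make the heme A of complex IV, fell by 0.52 ± 0.09 and 0.36 ± 0.09. The complex I factors Ndufaf2, Ndufaf1 and Dmac2 fell by 0.64, 0.38 and 0.46. Cox11, which inserts copper (0.10), and Cox18, which inserts a subunit into the membrane (0.31), did not pass.

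Probes of the same gene did not always agree. Of 24 members with at least 2 probes that passed the background limit, the 2 brightest had differences of the same sign for 19. Among the 6 called members of this kind, 4 kept the sign and Cycs and Atp5j did not. Only the 2 brightest probes were compared. Atp5pb, a stalk subunit of complex V, counted as agreeing (0.13 and 0.17 in intact mutants), but its dimmer probes differed by -0.65 and -0.80.

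Averaged over all 84 tested members, each array was set against the control mean. Controls lay from -0.03 to 0.02, intact mutants from -0.30 to -0.07 with a mean of -0.18, and castrated mutants from -0.27 to -0.08 with a mean of -0.16. Over the 73 tested subunits alone, controls lay from -0.035 to 0.024. Intact mutants then lay from -0.275 to -0.024, with array 5 inside the control range, and castrated mutants from -0.253 to -0.041. The assembly factors averaged -0.34 in intact and -0.30 in castrated mutants, and complex II -0.38 and -0.25. The Fo and stalk subunits, by their brightest probes, averaged 0.01 and -0.01, within the control range of -0.05 to 0.07. Atp5j and Atp5pb of this part fell on some of their other probes, as given above.

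**Figure D3:**
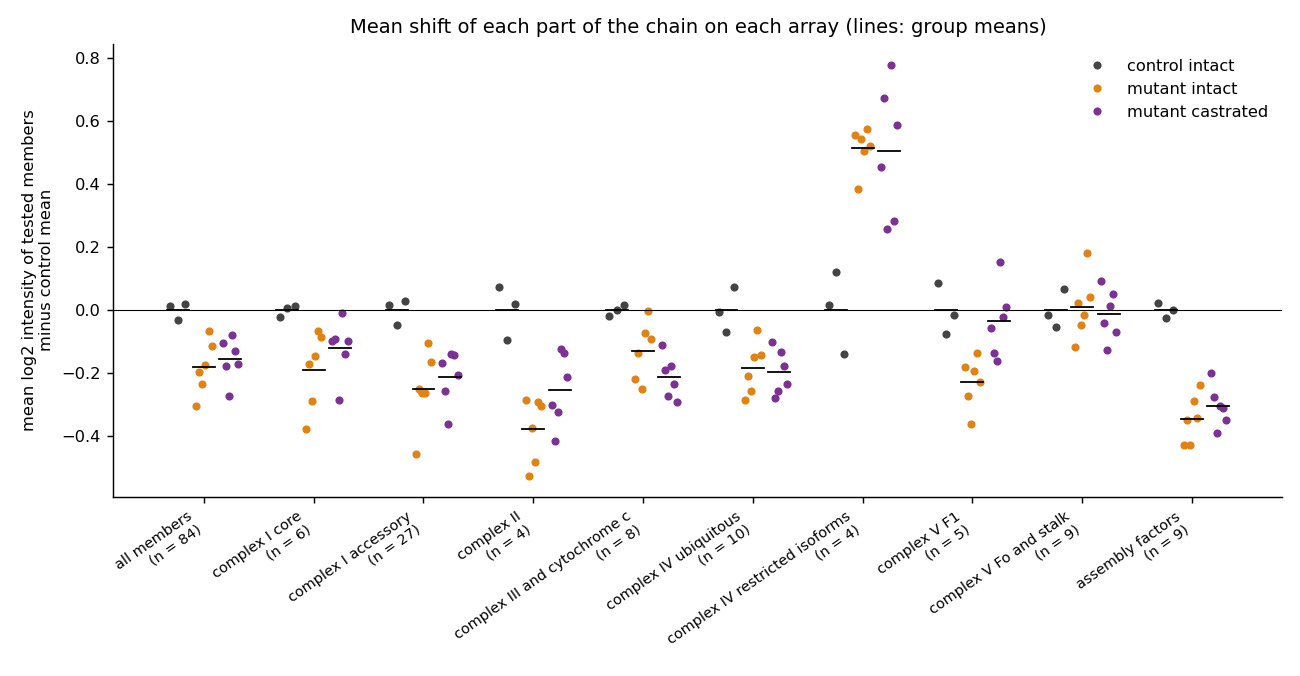
Mean log2 intensity of the tested members of each part of the chain on each array, minus the mean of the 3 control arrays, with 1 point per mouse and lines at the group means. All 12 mutant arrays lie below the controls for assembly factors and complex II, and above them for the 4 tested restricted isoforms of complex IV. Of these isoforms, Cox6a2 and Cox6b2 passed the background limit on mutant arrays alone, so the filter favours a mutant mean above the controls. Cox7a1, above background on all 15 arrays, differed by 0.06 in intact and -0.01 in castrated mutants. Fo and stalk subunits of complex V, by their brightest probes, scatter around 0.

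Markers of other cells differed strongly between the groups. All 9 tested smooth muscle markers were lower in intact mutants than in controls, and their summed intensity ran from 73154 to 83748 in controls, 5816 to 32515 in intact mutants and 5790 to 21368 in castrated mutants. Basal markers summed from 5235 to 7412 in controls and from 33721 to 52896 in intact mutants, with 4 of 5 higher and Dst lower. Macrophage markers summed from 2750 to 3633 and from 8125 to 92394, with 5 of 6 higher, and T and NK cell markers from 878 to 998 and from 1829 to 4880, with 5 of 5 higher. Luminal markers were mixed, with Krt8 higher, Pbsn lower and the other 4 not passing, and sums from 40785 to 50017 and from 35715 to 67851. Of 4 endothelial markers, Cdh5 and Tek were higher and Emcn lower, and their summed intensity ran from 3264 to 4034 in controls, 1303 to 2212 in intact mutants and 1346 to 2012 in castrated mutants. Of 4 prostate secretory transcripts, Tgm4 and Azgp1 were lower and Spink1 higher in intact mutants, and their sums ran from 62221 to 93552 in controls, 2188 to 18562 in intact mutants and 683 to 13570 in castrated mutants. The part of all these markers in the shift of the chain was not tested.

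Some arrays also held much RNA of seminal vesicle secretions. The sum of 5 such transcripts ran from 4690 to 138058 in controls, 732 to 141838 in intact mutants and 773 to 21591 in castrated mutants. Without control arrays 2 and 3 and intact mutant arrays 2 and 3, which were the highest, 1 control array was left, so that fit assumes that this array varies like those of the other groups. The 10 members still lower there, as given above, were Cox15, Cox17, Cox19, Cox4i1, Cox7a2l, Ndufb11, Ndufb2, Ndufb4, Ndufs7 and Sdhb. The median log2 fold change over members lay between -0.22 and -0.15 in all 29 alternative fits.

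Castration of mutant mice changed no member past the threshold. None of the 84 members passed, as none of the 16717 tested genes did (0%), and the smallest adjusted p was 0.0908 among members and 0.0571 among all genes. At an unadjusted p under 0.05, 16 of the 84 members and 2621 of the 16717 tested genes (15.7%) differed. The median log2 difference over members was -0.005. No member had castrated and intact mutant arrays that did not overlap, where 0.999% of all tested genes did.

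Members among those with the smallest p were Atp5a1, Cycs, Sdhb, Ndufb9 and Ndufa4. Atp5a1, the alpha subunit of F1, read from 9.83 to 10.53 (median 10.21) in intact and from 10.51 to 11.30 (median 10.76) in castrated mutants, a difference of 0.66 ± 0.15 (adjusted p = 0.0908). The ranges met only at their edges, and control arrays read 10.63, 10.46 and 10.50. Cycs differed by -0.34 ± 0.10 (adjusted p = 0.144), with castrated arrays from 11.07 to 11.73 (median 11.41). Sdhb differed by 0.23 ± 0.07 (adjusted p = 0.159), with castrated arrays from 11.15 to 11.40. These overlapped the intact mutant arrays and lay below all control arrays. Ndufb9 differed by 0.53 ± 0.18 and Ndufa4 by -0.25 ± 0.09 (adjusted p = 0.176 for each).

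Castrated mice fell into separate ranges for 2 of these 5 genes, Atp5a1 and Ndufb9, and for Sdhd, a gene added here for this split. The labels give 3 castrated mice ID numbers above 4000, far from the others, and do not say why. Atp5a1 read 11.30, 10.97 and 11.13 in these 3 and 10.51, 10.53 and 10.55 in the other 3. Ndufb9 read 10.57, 10.32 and 10.15 against 9.70, 9.70 and 9.36, and Sdhd 9.51, 9.66 and 9.31 against 9.02, 8.77 and 8.92. In each gene the mice with high ID numbers were the higher ones and lay above every intact mutant array. Sdhd was chosen because it splits in this way, so its separation adds no support. Of the 84 members, 13 lay higher in all 3 of these mice than in all of the others (15.5%, with 6.24% of all tested genes). Another 3, Cox19, Uqcrc2 and Uqcrh, lay lower (3.57%, with 6.01%). Without these mice, the castration differences of the 5 genes were 0.35 (Atp5a1), -0.20 (Cycs), 0.27 (Sdhb), 0.15 (Ndufb9) and -0.25 (Ndufa4). Those of Atp5a1 and Ndufb9 had to shrink, since the mice left out were the highest.

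**Figure D4:**
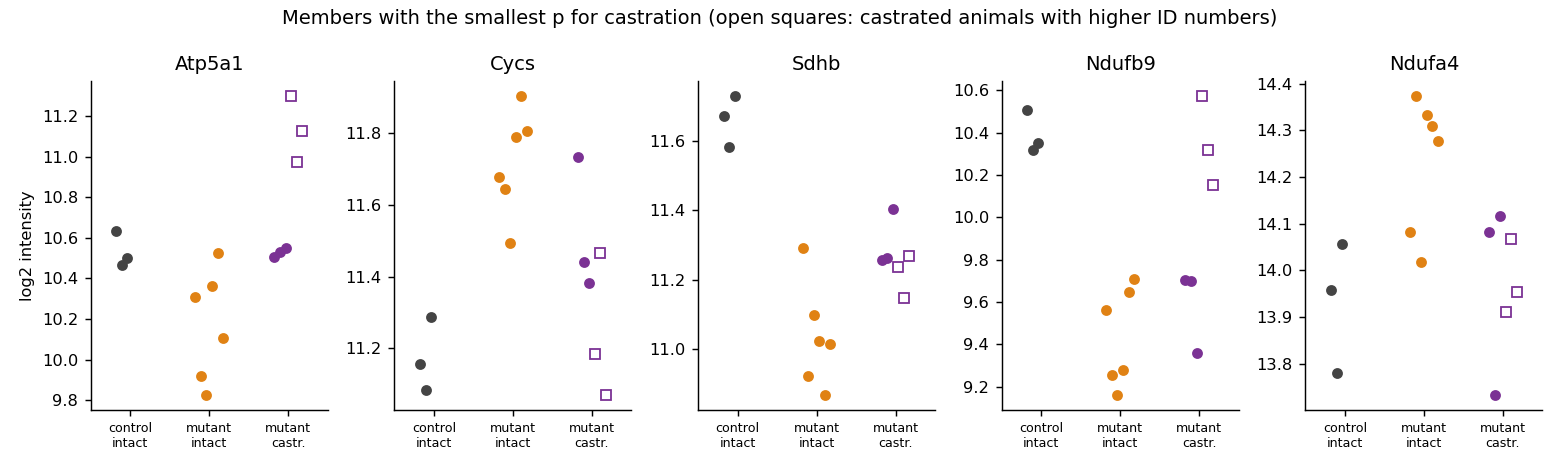
Log2 intensity on each array of Atp5a1, Cycs, Sdhb, Ndufb9 and Ndufa4, 5 of the members with the smallest p between castrated and intact mutants, with 1 point per mouse and open squares for the 3 castrated mice with ID numbers above 4000. The open squares lie above the other castrated mice for Atp5a1 and Ndufb9, and no difference passed the adjusted threshold.

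Castrated mutants were also set against intact controls, which changes genotype and castration together. This comparison shares its controls with the first and its castrated arrays with the second. Lower calls went to 28 members (33.3%, with 24.6% of all tested genes) and higher calls to 4 (4.76%, with 20% of all). Without control array 3, 1 member was higher (1.19%, with 16.2% of all tested genes). Over all members the median log2 fold change was -0.16.

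Ndufa1 had the largest change there. It read from 13.28 to 13.84 (median 13.41) in castrated mutants, all below the controls given above, and fell by 1.16 ± 0.19 (55.1%, adjusted p = 0.000125). The 4 higher members were Cox8b (1.06 ± 0.30), Cox6b2 (at least 1.41-fold), Ndufa11 (0.64 ± 0.12) and Cox11 (0.33 ± 0.11). Cox11 was the only higher member that had not been called in intact mutants.

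The calls of both groups of mutants rest on the same 3 control arrays. Ndufa2, Ndufb5, Ndufb9 and Sdhd were lower only among the intact calls, and Atp5j, Cox5a, Cycs, Ndufa4 and Ndufa9 higher only there. Atp5d, the delta subunit of F1, Ndufa3 of complex I and Uqcrh, the hinge protein of complex III, were lower only among the castrated calls. As no member passed between intact and castrated mutants, these lists do not show that the groups differ.

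Other mitochondrial genes were counted from lists kept beside the naming rule. In intact mutants 25.4% of all tested genes were lower and 18.2% higher. Of 17 tested genes of the tricarboxylic acid cycle, 10 were lower (58.8%) and 0 higher in intact mutants (median -0.36). Among the lower ones were Fh1, which hydrates fumarate (fall of 0.96 ± 0.12, adjusted p = 1.88e-05), and Dlat and Dld of pyruvate dehydrogenase (falls of 0.70 and 0.67). Of 19 genes of mitochondrial protein import, 13 were lower (68.4%) and 0 higher (median -0.42), including the channel subunit Timm17b (fall of 1.18 ± 0.10). Of 20 large-subunit mitochondrial ribosomal proteins, 11 were lower (55.0%) and 0 higher (median -0.26).

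Assembly factors outside the naming rule had 11 lower and 2 higher of 19 (57.9% and 10.5%, median -0.32). Surf1, needed for complex IV, and Ecsit, needed for complex I, each fell by 0.77, while Ttc19 of complex III rose by 0.62. Electron carriers and linked genes were split, with 6 lower and 5 higher of 21 (28.6% and 23.8%, near the 25.4% and 18.2% of all tested genes). Coq7, a hydroxylase of ubiquinone synthesis, rose by 1.20 ± 0.19 (adjusted p = 0.000115), and Coq9, which binds and assists Coq7, fell by 0.73 ± 0.14 (adjusted p = 0.000569). Fatty acid oxidation had 3 lower and 2 higher of 14 (21.4% and 14.3%), also near those shares.

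Regulators of mitochondrial gene expression went in both directions, with 3 higher and 4 lower of 15 (20% and 26.7%), near the shares of all tested genes. The coactivators Ppargc1a and Ppargc1b rose by 0.49 ± 0.18 and 0.66 ± 0.22, and Esrra, the nuclear receptor they act with, by 0.39 ± 0.13 (adjusted p = 0.0384, 0.0258 and 0.029). Tfb1m, a methyltransferase of mitochondrial ribosomal RNA, fell by 0.86 ± 0.13, Pprc1 by 0.51 ± 0.10, and Perm1, a muscle regulator, by 1.38 ± 0.18. Nrf1 (-0.26), Gabpa (-0.06) and Tfam (0.04), whose products act on promoters of the chain or on mitochondrial DNA, did not pass.

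Of the subunits encoded by mitochondrial DNA, 7 were tested. Of these, 4 were lower (57.1%, with 25.4% of all tested genes) and 0 higher (median -0.23). The lower ones included mt-Nd1 (-0.47), mt-Co2 (-0.41) and mt-Nd4 (-0.23). The fourth carried the older symbol of mt-Atp6 and matched a current symbol, Gm10925, so its source is uncertain. Glycolysis had the opposite balance, with 14 of 18 genes higher (77.8%, with 18.2% of all tested genes) and 1 lower (median 0.73). Eno1 rose by 2.20 ± 0.21, Pfkl by 1.88 ± 0.17 and Pkm by 1.40 ± 0.20, while the muscle isoform Pfkm fell by 1.18 ± 0.12. None of the genes on these lists passed between castrated and intact mutants.

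**Figure D5:**
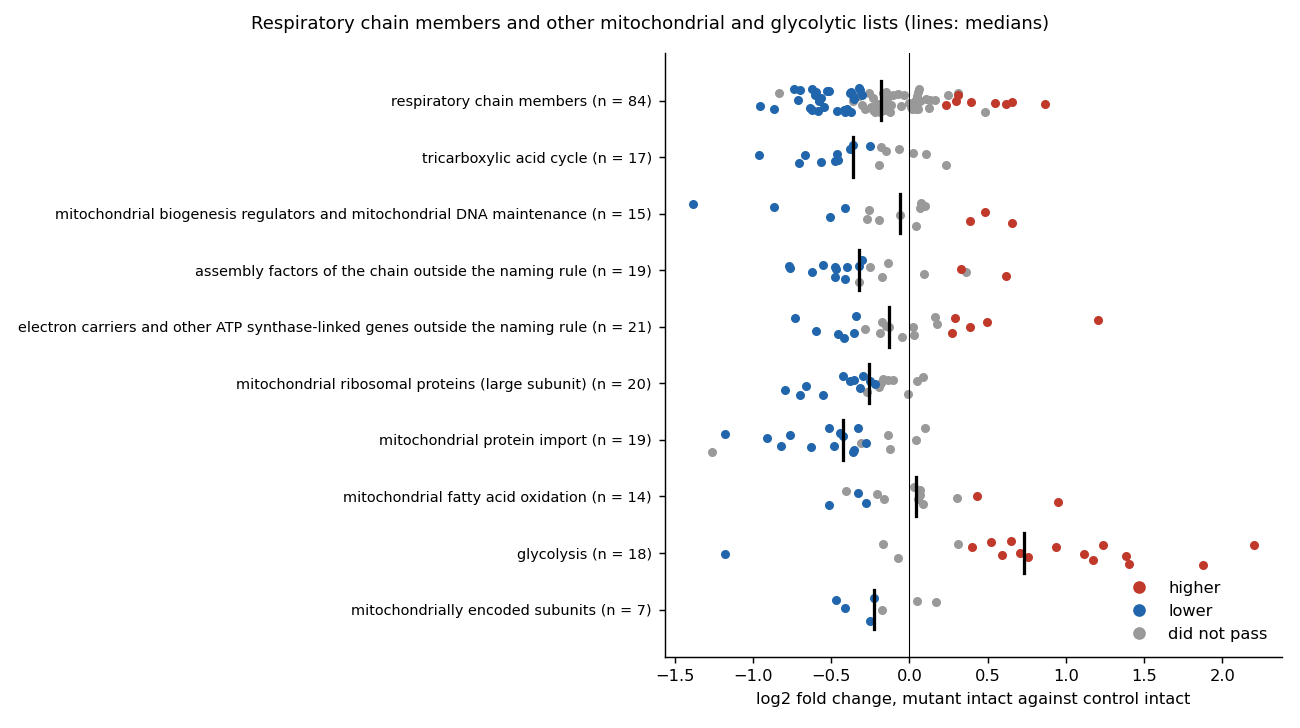
Log2 fold change of each tested gene in mutant intact (n = 6) against control intact (n = 3) prostate for the 84 chain members and 9 other lists, with black lines at the medians. Chain members centre at -0.18, the tricarboxylic acid cycle at -0.36 and protein import at -0.42, while glycolysis centres at 0.73.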

How the data were processed

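Total RNA of mouse anterior prostate (MagMAX-96 extraction, TotalPrep-96 biotin labelling, per the labels' protocols) was hybridised to single-colour Illumina BeadArrays, 1 per mouse. The authors' processed intensity values were deposited for 45281 probes on 15 arrays on a linear scale. How the authors corrected background and normalized is not given in the sources used here, and array medians agreed closely. A deposited table of raw signals has 15 signal columns named by chip position, which could not be tied to mice and were not used. Only its gene symbols were taken, updated through RefSeq (GRCm38.p6). Log2 intensity was fitted with limma 3.58.1 (R 4.3.3) with a mean for each group across the 15 arrays and eBayes (two-sided, Benjamini-Hochberg over all tested genes), and the script was tested on simulated data. The brightest probe stood for a gene. Per part of the chain the largest called rise and fall are given by array, with further called members by size, all restricted isoforms, and members with the smallest p for castration. The number of arrays limits the precision. Replicates are separate mice, numbered in accession order, and are not paired. Alternatives changed the background limit, the probe, the scaling, the weights or the arrays used. Members and lists were chosen with earlier results of these data known. The alleles' gene names, the targeted gene and some results that the rules name are not reported here.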

Additional observations from a re-analysis of the deposited data

Results flagged for a closer look

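In 11 of 168 groups of member values, 1 array lay far from the others by Dixon's criterion, which chance alone meets in about 1 of 20 groups. Intact mutant array 1 had Cox6a2 at 9.26, far above the rest of its group, and low values for Cox17 (12.27) and Ndufa8 (12.27). Castrated array 3 was low for Atp5l (14.13), Ndufa8 (12.12) and Ndufb8 (13.20). Castrated array 1 was high for Atp5j (14.07), castrated array 5 high for Ndufab1 (7.76), and castrated array 6 low for Cox10 (9.87). Intact mutant array 5 was high for Atp5l (14.59) and intact mutant array 4 low for Ndufa2 (12.84).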

How the results depend on the processing

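In 29 alternative fits the median shift of members stayed below 0 for both comparisons with control, and 9 of the 29 lower calls and 0 of the 8 higher calls in intact mutants were made in every fit, one of which had a single control array. Without single arrays, intact mutants against control gave 3 to 9 higher and 22 to 31 lower members (3 and 22 without control array 1, where 14.5% of all tested genes were higher and 21.3% lower). Castrated mutants against control gave 1 to 4 higher (1 without control array 3) and 19 to 31 lower members, and the castration comparison 0 to 1 in each direction (Atp5a1 higher and Cycs lower without castrated array 1). Normexp correction left 5 higher members in intact mutants, with 19.4% of all tested genes higher. Leaving out the 4 intact arrays rich in seminal vesicle transcripts, and with them all but 1 control array, left 0 higher and 10 lower members in intact mutants and 1 higher and 9 lower in castrated mutants, and 1412 higher and 2249 lower among all genes (1611 and 2361 in castrated mutants). Array weights called 3 members higher (among them Atp5a1 and Sdhb) and 1 lower (Ndufa1) after castration, with 397 and 220 among all genes, and single arrays left out gave up to 192 higher and 83 lower genes. The next brightest probe reversed Cycs to -0.15 and Atp5j to -0.61 in intact mutants, and Atp5j was -0.11 over the mean of its probes. The cause of these changes was not tested. Under cyclic loess 51.3% of called genes in intact mutants were higher, against 41.8% in the reported fit.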

Other observations

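The naming rule misses genes that the array lists by clone names. Of 11 tested genes whose current symbol fits the rule, 3 were lower and 0 higher in intact mutants than in controls, where 25.4% of all tested genes were lower and 18.2% higher. Ndufaf8, a complex I assembly factor, fell by 0.84, Ndufv3, an accessory subunit of complex I, by 0.53, and Cox14, an assembly factor of complex IV, by 0.26. In castrated mutants against control, 4 were lower and 1, Ndufaf5, was higher, where 24.6% of all tested genes were lower and 20% higher. None passed between castrated and intact mutants.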
